A study of Homo sapiens with 6 samples.

Results

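The genes described here are the 9 that make, convert, recycle or break down the deoxynucleotides used to copy DNA: RRM1 (ENSG00000167325), RRM2 (ENSG00000171848), RRM2B (ENSG00000048392), TK1 (ENSG00000167900), TYMS (ENSG00000176890), DTYMK (ENSG00000168393), DUT (ENSG00000128951), DCK (ENSG00000156136) and SAMHD1 (ENSG00000101347). They were picked by gene name from the 63677 genes of the deposited tables, and each name matched 1 gene. The cells were RPMI-8402, a human line of T cell acute lymphoblastic leukaemia (T-ALL), all stably carrying Cas9 and all given the genotype MYC_KO in the labels. The DOX group was 3 samples given doxycycline for 72 h to switch on guide RNAs against MYC, and the DMSO group was 3 samples given the solvent instead, in which guides were not induced. The sources used here give neither the dose of doxycycline nor the guide sequences, nor whether the line was 1 clone, and no sample had doxycycline without guides, so any effect of the drug itself cannot be told apart from that of the guides. The labels do not say whether replicates were grown apart, so the p-values rest on a spread that may be purely technical.

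Total counts per sample were 25819386 to 26214598 in DOX and 23121255 to 25412493 in DMSO. The labelled cell type was visible in the counts: 11 of 12 T lineage markers passed the filter on low counts, and their summed level was 3316 to 3488 counts per megaread of scaled library size (CPM) in DOX and 3250 to 3372 CPM in DMSO, with CD1A of cortical thymocytes under 1 CPM. MS4A1 of B cells, HBB of red cells, and EPCAM and KRT18 of epithelium had no counts in any sample. The level of MYC, the targeted gene, was 440 ± 16.0 CPM in DOX and 413 ± 8.01 CPM in DMSO (SD, n = 3 each), a difference that did not pass the test (edgeR adjusted p = 0.160). The MYC log2 fold change passed it as higher in DOX when libraries were scaled by the upper quartile (0.14, edgeR adjusted p = 0.0357) or by total count alone (0.14, edgeR adjusted p = 0.0281), a direction against the MYC_KO label. Edits of a few bases leave such reads countable, so this level checks the labels only in part. Markers of other cells were low but not flat: summed levels of the B cell list (4 of 5 genes tested) were 16.2 to 17.1 CPM in DOX and 11.5 to 12.9 CPM in DMSO, of the myeloid list (1 of 5 tested) 2.17 to 2.21 CPM in DOX and 1.07 to 1.27 CPM in DMSO, and of the epithelial and fibroblast list (1 of 5 tested) 47.3 to 53.0 CPM in DOX and 39.9 to 40.3 CPM in DMSO, nearly all COL1A1. The erythroid list (1 of 5 tested) was at 23.1 to 25.2 CPM in DOX and 21.4 to 25.2 CPM in DMSO, nearly all EPOR. The part of these marker lists in the results was not tested.

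Ribonucleotide reductase turns ribonucleotides into deoxyribonucleotides, and pairs a large catalytic subunit, RRM1, with a small radical-bearing subunit, RRM2 in cycling cells or RRM2B outside S phase. Thymidine triphosphate needs a further branch, in which DUT makes dUMP from dUTP, TYMS methylates dUMP to dTMP, and DTYMK phosphorylates dTMP, while TK1 and DCK recover free deoxynucleosides. SAMHD1 works against all of these by cleaving deoxynucleotide triphosphates (dNTPs). Dividing cells depend on this supply, and it is the target of hydroxyurea and nucleoside drugs.

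Promoter windows of 8 of the 9 genes were searched, with start sites taken from the RefSeq table (GRCh38.p14). They made 13 windows in all because some genes have several start sites, and windows of neighbouring starts of RRM2 and of DUT overlap. Each window ran from 250 bases before to 50 bases after the start. The 250 bases before the start are printed for RRM1, RRM2 and DTYMK, the genes lower in DOX in every setting tried, for TK1, which did not pass the test, and for DCK, the gene whose window held an E-box. Capitals mark matches on either strand to the E-box CACGTG, bound by MYC with MAX, to the E2F-type words TTCCCGC or TTGGCGC, to the CCAAT box, or to the CHR element TTTGAA of cell cycle genes.
RRM1, chr11:4094435-4094684, plus strand: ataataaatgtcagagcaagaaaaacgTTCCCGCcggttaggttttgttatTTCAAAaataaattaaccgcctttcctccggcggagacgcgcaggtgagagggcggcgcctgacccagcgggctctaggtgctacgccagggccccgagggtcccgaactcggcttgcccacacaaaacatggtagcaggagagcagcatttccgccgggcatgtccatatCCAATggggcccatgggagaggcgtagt
RRM2, start 2, chr2:10122489-10122738, plus strand: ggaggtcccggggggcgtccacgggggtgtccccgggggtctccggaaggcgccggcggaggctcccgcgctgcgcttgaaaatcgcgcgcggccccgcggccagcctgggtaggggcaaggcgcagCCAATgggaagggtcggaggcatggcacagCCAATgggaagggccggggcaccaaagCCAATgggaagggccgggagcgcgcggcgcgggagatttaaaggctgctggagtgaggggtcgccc
DTYMK, chr2:241686816-241687065, minus strand: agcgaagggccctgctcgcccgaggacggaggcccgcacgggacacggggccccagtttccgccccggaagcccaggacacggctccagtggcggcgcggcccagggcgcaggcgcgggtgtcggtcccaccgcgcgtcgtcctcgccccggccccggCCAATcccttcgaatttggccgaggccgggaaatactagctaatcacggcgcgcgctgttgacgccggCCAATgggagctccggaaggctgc
TK1, start 1, chr17:78187053-78187302, minus strand: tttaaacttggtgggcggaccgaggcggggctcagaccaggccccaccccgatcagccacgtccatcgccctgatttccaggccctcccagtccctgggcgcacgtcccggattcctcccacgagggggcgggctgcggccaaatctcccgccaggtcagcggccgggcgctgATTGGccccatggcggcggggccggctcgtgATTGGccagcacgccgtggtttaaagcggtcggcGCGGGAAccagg
DCK, chr4:70993399-70993648, plus strand: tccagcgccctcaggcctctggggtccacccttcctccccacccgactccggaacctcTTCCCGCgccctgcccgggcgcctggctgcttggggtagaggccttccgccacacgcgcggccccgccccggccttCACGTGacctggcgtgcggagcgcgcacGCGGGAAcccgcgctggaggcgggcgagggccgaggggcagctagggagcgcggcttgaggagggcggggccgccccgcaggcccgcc

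E2F-type words were present in windows of 6 of the 8 genes (RRM1, RRM2, TK1, TYMS, DUT and DCK), or 6 of 13 windows, against 9.23% of all 35116 windows in the table. CCAAT boxes were in 6 of 13 windows, against 34.6% of all windows, and the RRM2 window printed above held 3 such boxes, which begin 123, 93 and 66 bases before the start. The E-box was in 1 of 13 windows, against 7.26% of all windows, and the CHR element in 2 of 13, against 15.2%. No window of RRM2B was searched, so whether its promoter holds any of these words was not tested. These are matches of letters in short windows and say nothing of binding, and a window without a match says only that these letters are not in it. TK1, which did not pass the test, held both E2F-type and CCAAT words, as did RRM1 and the start 1 window of RRM2. The start 2 window of RRM2 held CCAAT boxes and no E2F-type word. The same was true of DTYMK, which like RRM1 and RRM2 was lower in DOX. Any link between these words and the changes was not tested.

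**Figure D1:**
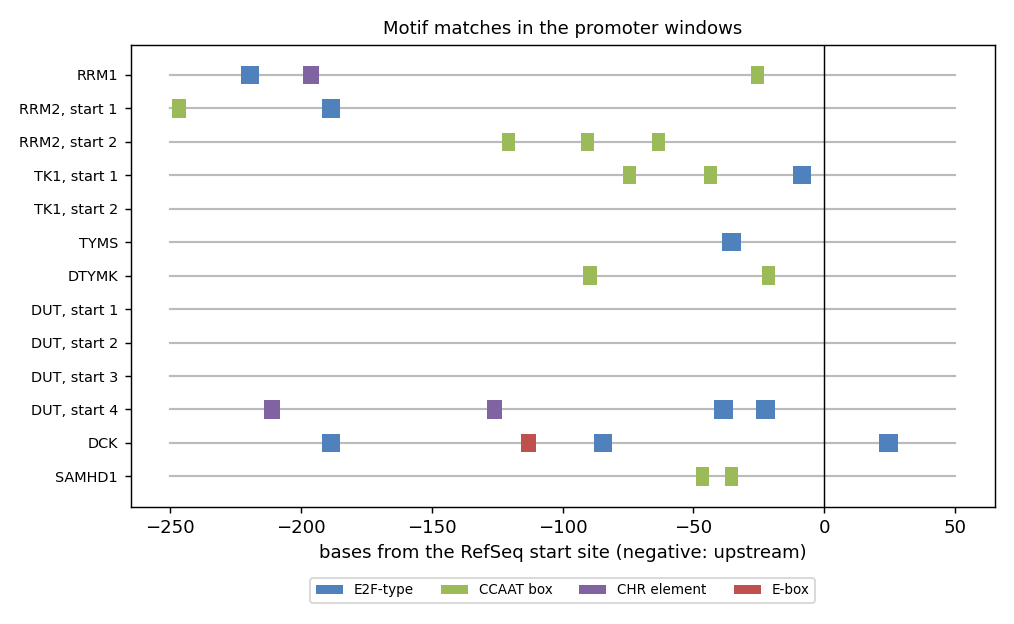
Motif matches in the 13 promoter windows, drawn by distance in bases from the RefSeq start site at 0; coloured blocks are matches and grey lines are the windows. E2F-type words appear in windows of 6 of 8 genes and the E-box in DCK alone.

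Both main subunits of the reductase were lower in DOX. In bulk samples, fewer cells in S phase and less of these RNAs per cell cannot be told apart. RRM1 stood at 189.9, 197 and 195 CPM in DOX replicates 1, 2 and 3, and at 239, 232 and 231 CPM in DMSO replicates 1, 2 and 3. Every DOX sample was below every DMSO sample, and means were 194 ± 3.45 CPM in DOX and 234 ± 4.48 CPM in DMSO (SD, n = 3 each). RRM1 in DOX was at 0.830 of its DMSO level, or -0.27 on the log2 scale with a standard error (SE) of 0.047 (edgeR adjusted p = 0.000148). RRM2 stood at 331, 334 and 335 CPM in DOX, against 427, 386 and 395 CPM in DMSO. Again the groups did not overlap, and the spread was wider in DMSO, where replicate 1 was the highest. RRM2 averaged 333 ± 1.98 CPM in DOX and 403 ± 21.4 CPM in DMSO (SD, n = 3 each), which is -0.27 on the log2 scale (SE 0.050, edgeR adjusted p = 0.000227).

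RRM1 and RRM2 had nearly equal log2 fold changes. The log2 ratio of RRM2 to RRM1 within a sample was 0.80, 0.76 and 0.78 in DOX and 0.84, 0.74 and 0.78 in DMSO, and the difference in means was -0.00 (two-sided exact permutation test over samples, p = 1.0, adjusted p = 1.0 over the 3 ratios tested). The ratio does not depend on how libraries are scaled to each other, and with 3 samples against 3 the smallest p such a test can give is 0.1.

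RRM2B, the small subunit that p53 induces and that serves repair and mitochondrial DNA, did not pass the test. It stood at 8.31, 9.26 and 10.2 CPM in DOX, against 9.68, 7.85 and 10.7 CPM in DMSO, and the groups overlapped. The log2 fold change was -0.02, with a 95% interval of -0.24 to 0.20 (edgeR adjusted p = 0.931), so a change as large as that of RRM2 lay just outside the interval. The log2 ratio of RRM2B to RRM2 was -5.32, -5.17 and -5.03 in DOX and -5.46, -5.62 and -5.21 in DMSO. That difference of 0.26 in means did not reach significance (two-sided exact permutation test, p = 0.2, adjusted p = 0.6 over 3 ratios). With a smallest possible p of 0.1, this test could not have shown a different response of the small subunits.

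In the thymidylate branch, TYMS, DUT and DTYMK were lower in DOX and TK1 did not pass the test. The call of DTYMK held in 15 of 15 alternative settings, that of DUT in 7 and that of TYMS in 3, and with GC content and length corrected DUT was at -0.00 and TYMS at -0.04, neither called. DTYMK, the kinase through which dTMP from either source must pass, stood at 46.4, 43.5 and 43.0 CPM in DOX and at 50.7, 53.8 and 49.6 CPM in DMSO. DTYMK averaged 44.3 ± 1.81 CPM in DOX and 51.4 ± 2.21 CPM in DMSO (SD, n = 3 each), with no overlap and a log2 fold change of -0.21 (SE 0.058, edgeR adjusted p = 0.00725). TYMS, the thymidylate synthase blocked by fluorouracil, stood at 161, 150.1 and 158 CPM in DOX and at 169, 184 and 165 CPM in DMSO. The DOX samples were all lower, by a narrow margin, and TYMS averaged 157 ± 5.75 CPM in DOX and 173 ± 9.69 CPM in DMSO (SD, n = 3 each). Its log2 fold change of -0.14 (SE 0.052, edgeR adjusted p = 0.0412) was the smallest of the calls among the 9 genes.

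DUT, the dUTPase that keeps uracil out of DNA, stood at 116, 112 and 113 CPM in DOX and at 124, 133 and 123 CPM in DMSO. Groups did not overlap, with DMSO replicate 2 the highest, and the log2 fold change was -0.15 (SE 0.051, edgeR adjusted p = 0.0232). TK1, the thymidine kinase of S phase cells, stood at 142, 141 and 143 CPM in DOX and at 138, 149 and 141 CPM in DMSO. The DOX values lay inside the DMSO range. The log2 fold change of TK1 was -0.00, with a 95% interval of -0.10 to 0.10 (edgeR adjusted p = 0.972), an interval that leaves out the changes measured for RRM1, RRM2 and DTYMK. The difference between TK1 and these genes was not itself tested, and the interval is from the fit without correction for GC content and length. With that correction TK1 was at -0.08 (SE 0.040), RRM1 at -0.16 (SE 0.038), RRM2 at -0.21 (SE 0.042) and DTYMK at -0.23 (SE 0.046).

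DCK phosphorylates deoxycytidine and deoxyguanosine, and activates cytarabine and nelarabine in T-ALL therapy. It stood at 116, 117 and 121 CPM in DOX and at 139.6, 126 and 133 CPM in DMSO, with no overlap. DCK averaged 118 ± 2.66 CPM in DOX and 133 ± 6.79 CPM in DMSO (SD, n = 3 each), which is -0.17 as log2 fold change (SE 0.051, edgeR adjusted p = 0.0113). The call of DCK held in 10 of 15 alternative settings, and with GC content and length corrected DCK was at 0.01 and not called. SAMHD1, the dNTP hydrolase that also inactivates cytarabine triphosphate, was barely detected, with 9, 16 and 15 counts in DOX and 9, 13 and 18 counts in DMSO. These correspond to 0.342 to 0.610 CPM in DOX and 0.357 to 0.786 CPM in DMSO. The log2 fold change of SAMHD1 was -0.13, with a 95% interval of -0.87 to 0.60 (edgeR adjusted p = 0.816). Changes in either direction within that interval could not be told from none at this depth. The log2 ratio of SAMHD1 to RRM1 was -9.12, -8.33 and -8.44 in DOX and -9.39, -8.75 and -8.20 in DMSO (two-sided exact permutation test, p = 0.7, adjusted p = 1.0 over 3 ratios).

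**Figure D2:**
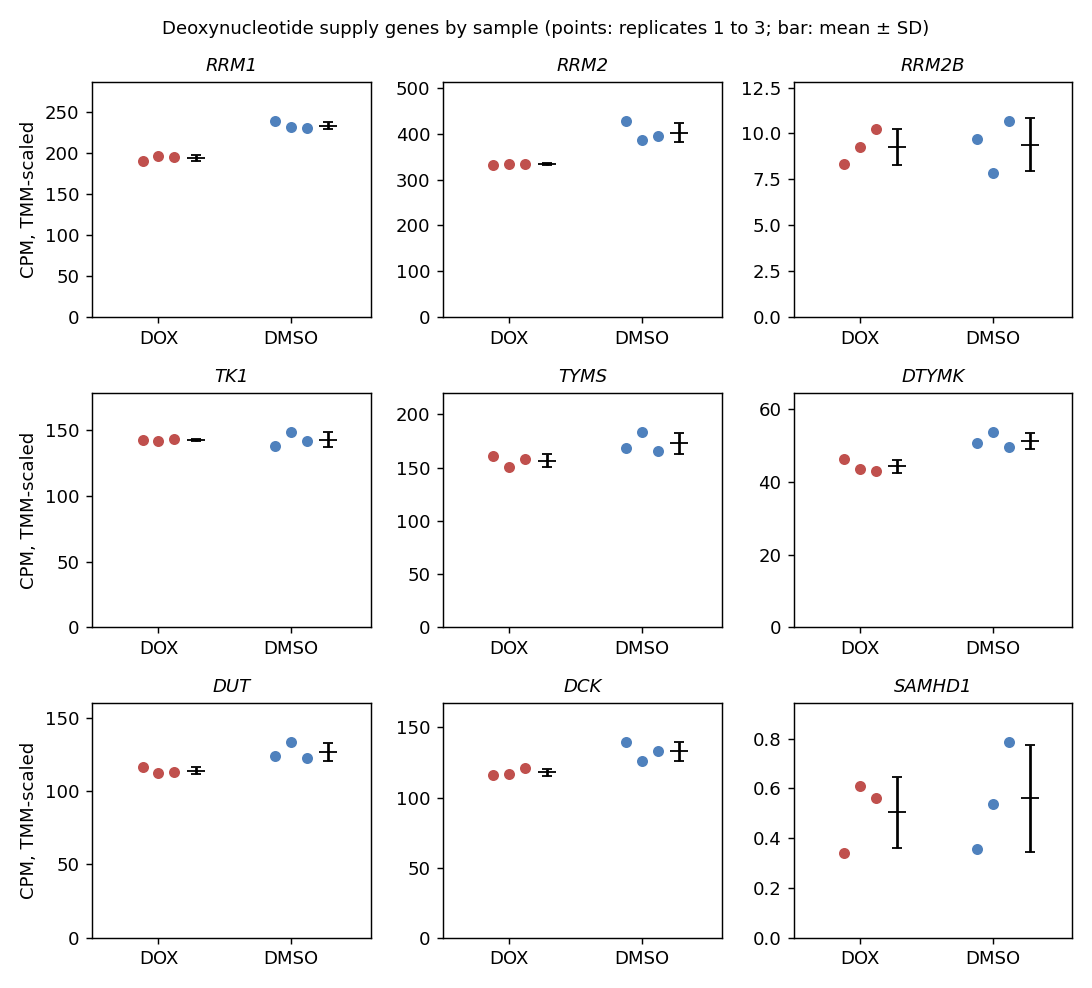
Levels of the 9 genes in CPM after TMM scaling, each axis from 0, with DOX samples in red and DMSO samples in blue; points are replicates 1 to 3 and the bar is mean ± SD. DOX lies below DMSO without overlap for RRM1, RRM2, TYMS, DTYMK, DUT and DCK, while RRM2B, TK1 and SAMHD1 overlap.

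As a group, 6 of the 9 genes fell and 0 rose, where 15.5% of all 15492 tested genes fell and 13.8% rose (edgeR, adjusted p under 0.05). All 9 had passed the filter on low counts. The same 6 were below DMSO without overlap, which held for 21% of tested genes. The median log2 fold change of the 9 was -0.15, against -0.00 over all tested genes. Together the 9 genes took 1105 to 1118 CPM in DOX and 1249 to 1296 CPM in DMSO, or 0.110% to 0.112% of scaled counts in DOX and 0.125% to 0.130% in DMSO. The authors' deposited table gave the same 6 genes an adjusted p-value under 0.05 in the same direction, with log2 fold changes of -0.28 for RRM1, -0.28 for RRM2, -0.22 for DTYMK, -0.18 for DCK, -0.16 for DUT and -0.15 for TYMS. In the authors' deposited table SAMHD1 had no adjusted p-value.

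The median fold change differed between genes of low and high GC content, and the 9 genes range from 36.4% GC in RRM2B to 62.8% in TK1, so each was set beside genes of like GC content (within 2 percentage points, mean log2 CPM above 2). Such genes had a median log2 fold change of -0.10 for RRM1 (43.5% GC), -0.07 for RRM2 (45.8%), -0.10 for DUT (44.2%) and -0.12 for DCK (38.8%). At the GC-rich end the median of like genes was 0.10 for DTYMK (59.7% GC) and 0.12 for TK1. DTYMK thus fell among genes that were mostly above 0, and TK1 at -0.00 lay below the median of its GC neighbours. With GC content and length corrected, 3 of the 9 fell and 0 rose, against 11.4% of 15036 genes that fell and 10.8% that rose. RRM2 then fell by 0.21 (edgeR adjusted p = 0.00143), DTYMK by 0.23 (edgeR adjusted p = 0.00122) and RRM1 by 0.16 (edgeR adjusted p = 0.00447). The calls of TYMS (-0.04, edgeR adjusted p = 0.534), DUT (-0.00, adjusted p = 0.962) and DCK (0.01, adjusted p = 0.926) were lost. TK1 was at -0.08 (edgeR adjusted p = 0.143) and RRM2B at 0.13 (edgeR adjusted p = 0.362). A real effect linked to GC content or length would be removed with it.

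**Figure D3:**
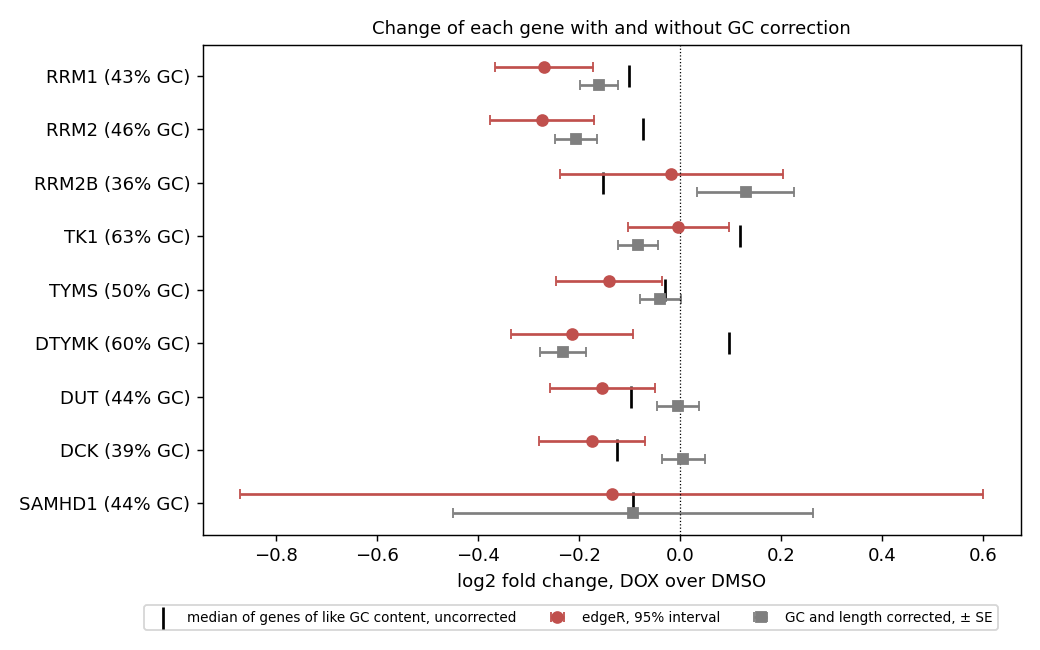
Log2 fold change, DOX over DMSO, of each gene from edgeR with its 95% interval (red), with GC content and length corrected ± SE (grey), and the median of genes of like GC content (black ticks). RRM1, RRM2 and DTYMK stay below 0 after correction, at -0.16, -0.21 and -0.23.

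The 3 genes RRM1, RRM2 and DTYMK were called as lower in each of the 15 alternative settings, with the highest edgeR adjusted p at 0.00850, 0.00410 and 0.0476. The others depended on the setting: DCK was called in 10 of 15, DUT in 7 of 15 and TYMS in 3 of 15. RRM2B and TK1 were called in 0 of 15. When libraries were scaled by the upper quartile, or by total count with no further factor, 3 of the 9 genes fell (RRM1, RRM2 and DTYMK), where 10.2% and 10.4% of tested genes fell, and of the calls over all genes 64.4% and 63.2% were higher, against 47.0% with TMM. Leaving out DMSO replicate 2, the library that lay farthest from its group along the second principal component, left 4 of the 9 genes called, without TYMS and DUT.

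The replicates of a group also differed among themselves. DMSO replicate 2 was below the DMSO mean for RRM2B, DCK and RRM2, by log2 deviations of -0.25, -0.08 and -0.06. It was above the DMSO mean for TYMS, DUT, DTYMK and TK1, by 0.09, 0.08, 0.07 and 0.06. In DOX replicate 1 RRM2B deviated by -0.15 and DTYMK by 0.07. Every one of the 9 genes except SAMHD1 deviated there with the same sign as in DMSO replicate 2. Over genes of mean log2 CPM above 2, deviations of these 2 libraries had a correlation of 0.32, the highest of any DOX with any DMSO sample. Without these 2 libraries together, 4 of the 9 genes were called, again without TYMS and DUT.

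Between genes, levels were compared per kilobase of exon, as the length covered by all annotated exons of a gene in GENCODE 29. In DMSO, TK1 and RRM2 were the most abundant, at 76.6 ± 2.99 and 75.6 ± 4.03 CPM per kilobase (SD, n = 3 each), and did not differ beyond their spread. TYMS, whose range reached into theirs, followed at 69.9 ± 3.93, RRM1 at 55.9 ± 1.07, DCK at 41.2 ± 2.10, DUT at 34.5 ± 1.61 and DTYMK at 21.0 ± 0.901 CPM per kilobase. The ranges of these last 4 did not overlap each other or that of TYMS. RRM2B, at 1.69 ± 0.257 CPM per kilobase, and SAMHD1, at 0.0497 ± 0.0191, were far below. In DOX the order put TK1 alone first, at 76.4 ± 0.371 CPM per kilobase. TYMS at 63.4 ± 2.33 and RRM2 at 62.6 ± 0.372 came next and overlapped, and the order below them was as in DMSO. Lengths of expressed isoforms may be shorter than the exon total, so these levels are approximate.

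Some of these counts could include reads of other genes, since the sources used here do not give the strand setting of the counting. TYMS shares 967 exon bases with ENOSF1 on the opposite strand, which stood at 33.8 ± 1.36 CPM in DOX and 35.0 ± 0.645 CPM in DMSO (SD, n = 3 each; log2 fold change -0.05, edgeR adjusted p = 0.560). DCK shares 199 exon bases with MOB1B on the same strand, at 54.0 to 64.8 CPM in DOX and 50.6 to 65.0 CPM in DMSO (log2 fold change 0.02, edgeR adjusted p = 0.904). RRM2 and DUT have processed copies elsewhere in the genome. The largest counts over all 6 samples were 26 for RRM2P3, against 55590 for RRM2, and 25 for DUTP6, against 18187 for DUT.

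Beyond the 9 genes, 5 lists were read against the same shares of all tested genes, 15.5% lower and 13.8% higher, or 11.4% lower and 10.8% higher with GC content and length corrected. Of 20 interconversion and salvage partners, 17 were tested, 8 fell and 0 rose, with a median log2 fold change of -0.12, against -0.00 over all tested genes. With upper-quartile scaling 5 fell and 2 rose, and with total count alone 6 fell and 2 rose. NME1, a nucleoside diphosphate kinase that makes triphosphates, stood at 91.0 ± 0.656 CPM in DOX and 149.5 ± 16.0 CPM in DMSO (SD, n = 3 each), and fell by 0.72 on the log2 scale (SE 0.060, edgeR adjusted p = 4.58e-09). Its count is uncertain because NME1 overlaps a read-through gene with NME2, and NME2 is listed at 0. SLC29A1, the equilibrative transporter through which nucleosides and cytarabine enter cells, stood at 126 ± 0.702 CPM in DOX and 168 ± 8.68 CPM in DMSO (SD, n = 3 each), and fell by 0.41 on the log2 scale (SE 0.050, edgeR adjusted p = 1.76e-06). PNP, the phosphorylase that breaks down deoxyguanosine, stood at 32.8 ± 0.857 CPM in DOX and 43.2 ± 3.11 CPM in DMSO and fell by 0.40 on the log2 scale (SD, n = 3 each; edgeR adjusted p = 4.51e-05). With GC content and length corrected, 5 of the 17 fell and 0 rose, against 11.4% and 10.8% of all genes, with a median of -0.00, and NME1, SLC29A1 and PNP were among the 5. DCTD, which deaminates dCMP to dUMP and was picked out after its values were seen, was then at -0.21. SLC29A1 was then at -0.46.

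Of 12 enzymes that remove nucleotides or clean the pool, 11 were tested, 5 fell, 1 rose and 5 did not pass the test, with a median log2 fold change of -0.16, where 15.5% of all tested genes fell and 13.8% rose. DCTPP1, which hydrolyses dCTP and its modified forms, stood at 44.4 ± 3.78 CPM in DOX and 61.1 ± 3.24 CPM in DMSO (SD, n = 3 each), which is -0.46 as log2 fold change (SE 0.063, edgeR adjusted p = 8.88e-06). DNPH1, which cleaves hydroxymethyl-dUMP, fell by 0.30, HDDC2, a deoxynucleotidase, by 0.46, and NT5C3A, a pyrimidine nucleotidase, by 0.33. NT5M, the mitochondrial deoxynucleotidase, was the gene that rose, by 0.27 (SE 0.083, edgeR adjusted p = 0.0169), at 17.1 ± 0.688 CPM in DOX and 14.2 ± 1.66 CPM in DMSO (SD, n = 3 each). After correction for GC content and length 4 of the 11 fell and 0 rose, where 11.4% of all genes fell: DCTPP1 was at -0.42, DNPH1 at -0.37, HDDC2 at -0.32 and NT5C, a nucleotidase not called before, at -0.26. The calls of NT5C3A and NT5M were lost (edgeR adjusted p = 0.471 and 0.0943).

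Of 7 electron donors and protein regulators of the reductase, 4 fell and 1 rose, with a median log2 fold change of -0.13, where 15.5% of all tested genes fell and 13.8% rose. With upper-quartile scaling 2 fell and 1 rose. TXN and GLRX, the thioredoxin and glutaredoxin that reduce the enzyme after each cycle, fell by 0.39 and 0.23 (edgeR adjusted p = 3.09e-06 and 0.00429). TXN stood at 109 ± 4.58 CPM in DOX and 144 ± 0.706 CPM in DMSO (SD, n = 3 each). AHCYL1, which binds and restrains the reductase, fell by 0.17, and TXNRD1, which keeps thioredoxin reduced, by 0.13 (edgeR adjusted p = 0.00760 and 0.0442). FZR1, an activator of the ubiquitin ligase that marks TK1 and RRM2 for destruction, rose by 0.16 (edgeR adjusted p = 0.0348). With the correction TXN, GLRX and AHCYL1 were at -0.16, -0.15 and -0.16 and still passed, CCNF, which marks RRM2 for destruction, was called at -0.17, and TXNRD1 (-0.06) and FZR1 (-0.06) did not.

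The reductase genes peak in S phase, so cell cycle genes were set beside them. Of 15 tested G1/S genes 7 fell and 2 rose, with a median log2 fold change of -0.13, where 15.5% of all tested genes fell and 13.8% rose. The balance depended on the scaling, with 3 lower and 3 higher by the upper quartile and 4 lower and 3 higher by total count alone. PCNA fell by 0.27, MCM4 by 0.23 and MCM3 by 0.19, while CDT1 rose by 0.18 and MCM5 by 0.15. Once GC content and length were corrected, CDT1 and MCM5 were at 0.00 and 0.03 and were not called. PCNA was then at -0.09 and its call was lost (edgeR adjusted p = 0.109), while MCM4 at -0.21 and MCM3 at -0.19 were still called. Of 12 G2/M genes 3 fell and 0 rose, with a median of -0.05. That share is near the 15.5% of all tested genes that fell, and with upper-quartile scaling 1 fell and 1 rose. CCNB1 fell by 0.19, TOP2A by 0.14 and CDK1 by 0.15, with CDK1 at 0.09 once GC content and length were corrected. With GC content and length corrected, 4 of 15 G1/S genes fell and 0 rose (median -0.07), and 0 of 12 G2/M genes fell and 1, UBE2C, rose (median 0.02). What share of the changes in RRM1 and RRM2 goes with the cell cycle was not tested.

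**Figure D4:**
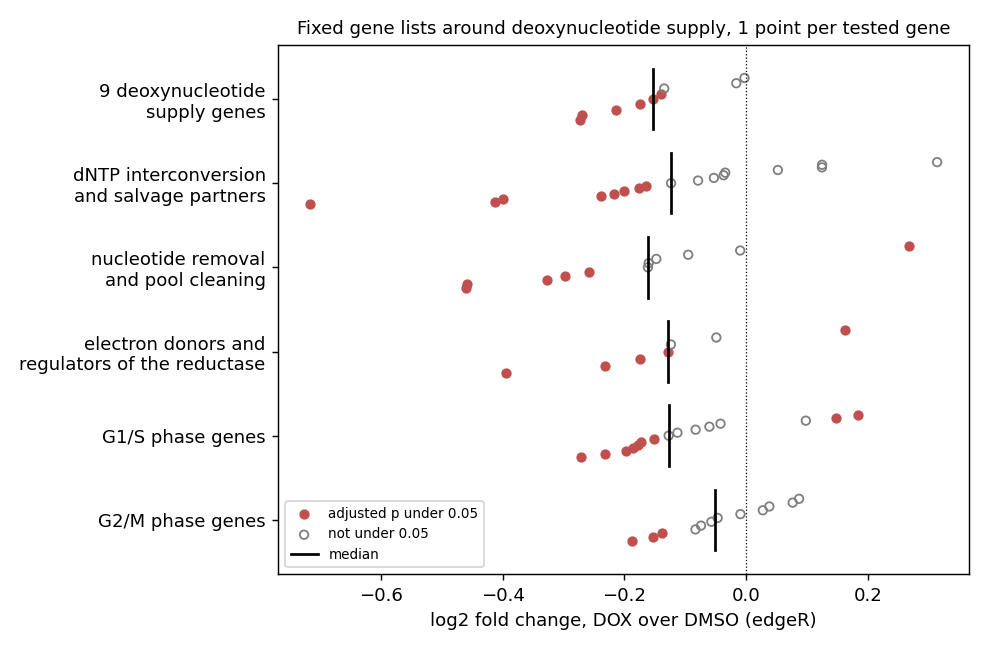
Log2 fold change, DOX over DMSO, of each tested gene of the 9 and of 5 fixed lists; filled points passed the edgeR test, open points did not, and black bars are medians. All list medians lie below 0, from -0.16 for nucleotide removal to -0.05 for G2/M genes.

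The genes nearest to each reductase subunit were found by the root mean square difference of centred log2 CPM over the 6 samples, among 9670 genes whose mean log2 CPM reached 3. For RRM1 these were CNBP at 0.0170, MAK16 at 0.0174 and HSP90B1 at 0.0185, against a median of 0.137 over all compared genes. For RRM2 they were TAF5 at 0.0157, ABCD3 at 0.0194 and NADK2 at 0.0206, against a median of 0.144. None of the 6 is an enzyme of deoxynucleotide supply. The distance rests mostly on the difference between the groups, since the samples share that design.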

How the data were processed

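Libraries kept strand and were sequenced from both ends by BGI on DNBSEQ after Qiazol and miRNeasy extraction, per the labels' protocols. The values analysed are the authors' deposited counts, whole and not normalized. The submitters' processing notes list STAR 2.5.2a, featureCounts, DESeq2 1.12.4 and hg19 without roles; the sources used here give neither the gene annotation nor the counting strand. A second table, of the authors' own comparison, gives each gene's mean normalized signal, log2 fold change, Wald score and p-value as deposited, and was used for description alone.

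Of 63677 genes, 15492 passed filterByExpr at default settings. TMM scaling and the quasi-likelihood test of edgeR 4.0.16 (R 4.3.3) compared DOX with DMSO, with no other term in the model. A gene was called when its Benjamini-Hochberg adjusted p over all tested genes was under 0.05; the SE was taken as the absolute log2 fold change divided by the root of F. Other scalings, no filter, DESeq2 1.42.0, a replicate block, correction for GC content and length, and omitted samples were the alternatives. For the correction, natural splines with 5 degrees of freedom each were fitted to each library's deviation from the gene's mean log2 CPM (prior count 2). They took GC content and length from the longest GENCODE 29 transcript, known for 97.1% of tested genes. The fit used genes of mean log2 CPM above 2, and its values were entered as offsets. Test and correction were tested on simulated data. There the test called 28% of 1.15-fold changes, 84% of 1.25-fold and 100% of 1.5-fold changes, with 10 false calls among 15310 genes. A GC trend of preset strength, not fitted to these data, was then added. False calls were 4564 without the correction and 7 with it, and right calls 85.5% and 76.6%. GENCODE 29 is built on GRCh38, so no hg19 position is printed, and promoter positions are RefSeq's.

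The 9 genes and the lists were chosen with earlier results of these data known. Named are the 9 genes, MYC, the 3 tested genes of lowest p per list, all calls of a direction holding 5 or fewer, and the 3 nearest profiles of RRM1 and of RRM2; a few genes of the lists are counted but not reported here by name. Samples of the same number did not deviate together (correlations -0.06, -0.22 and 0.09), so numbers were not used as pairs. Replicates of a group differed by more than sampling noise in every pair.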

Additional observations from a re-analysis of the deposited data

How the results depend on the processing

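Depth limits SAMHD1 and RRM2B most, at 9 to 18 and 190 to 274 counts per sample. RRM1, RRM2 and DTYMK kept their direction and call in all 15 alternatives, with log2 fold changes of -0.29 to -0.16, -0.30 to -0.20 and -0.25 to -0.17, and RRM2B, TK1 and SAMHD1 were called in none that gave an adjusted p. The 3 ratios were tried in 8 settings each, and moved there by less than their replicate spread. The ratios printed above hold no correction for GC content or length. The cause of the changes below was not tested, beyond the fewer samples where some were left out.

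With upper-quartile scaling 3 of the 9 members were called, with the TYMS log2 fold change at -0.092, the DUT log2 fold change at -0.11 and the DCK log2 fold change at -0.13; with library size alone 3 were called, with the same 3 genes at -0.10, -0.11 and -0.13. Upper-quartile scaling left 3 calls among electron donors and regulators. In DESeq2 TYMS was at -0.14 (adjusted p = 0.0512). With a replicate block TYMS was at -0.14 (edgeR adjusted p = 0.0689), 5 of the 9 members were called, and genes called across all genes numbered 4206, against 4545. With GC content and length corrected 3 members were called, TYMS was at -0.039, DUT at -0.0037 and DCK reversed to 0.0072 (edgeR adjusted p = 0.926); also reversed, and then not called, were the CMPK1 log2 fold change at 0.0042, the FZR1 log2 fold change at -0.055 and the CDK1 log2 fold change at 0.089. Calls then numbered 5 among interconversion partners, 4 among G1/S and 1 among G2/M genes. The replicate block with GC content and length corrected gave 3, 5, 4 and 1 calls, TYMS at -0.039, DUT at -0.0032, DCK at 0.0078, CMPK1 at 0.0032, FZR1 at -0.056 and CDK1 at 0.088.

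With each sample left out in turn, 4 to 6 members were called. The TYMS log2 fold change ranged from -0.17 to -0.10, with its call kept only without DMSO replicate 3 (edgeR adjusted p = 0.0169). The DUT log2 fold change ranged from -0.18 to -0.12, its call lost without DOX replicate 2 (edgeR adjusted p = 0.0818), DOX replicate 3 (0.0914) or DMSO replicate 2 (0.0884). The DCK log2 fold change ranged from -0.21 to -0.14, its call lost without DMSO replicate 1 (edgeR adjusted p = 0.0861). Calls ranged from 3 to 5 among donors and regulators, 5 to 10 among G1/S and 1 to 3 among G2/M genes. Without DMSO replicate 2 and DOX replicate 1 together, TYMS was at -0.12 (edgeR adjusted p = 0.104) and DUT at -0.13 (edgeR adjusted p = 0.0617).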
